A study of Homo sapiens with 18 samples.

Results

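A set of 10 genes was followed that is widely used to tell the epithelial from the mesenchymal state of carcinoma cells, taken by name from the deposited table. Of these, 9 had a row among the 17026 endogenous genes and all 9 entered the tests; CDH2, the gene of N-cadherin, is not analysed here. VIM, SNAI1, ZEB1 and FN1 stand on the mesenchymal side, and CDH1, ESRP2, OCLN, KRT8 and KRT18 on the epithelial side. Polyadenylated RNA was sequenced from 3 human pancreatic ductal adenocarcinoma lines, PANC-1, MiaPaCa-2 and BxPC-3, each exposed for 6 h to THZ1 at 100 nM or to its solvent DMSO, in 3 libraries per group and 18 in all. THZ1 is a covalent inhibitor of the transcription kinase CDK7 that also binds CDK12 and CDK13. All groups grew in F12 medium with serum, β-glycerophosphate and L-ascorbic acid. Each line stands for 1 tumour, and the design text calls the libraries biological triplicates. The limma p-values thus measure the spread between cultures within a group, estimated per gene over all 6 groups together.

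Epithelial cells are held together by adherens and tight junctions and carry a keratin cytoskeleton, whereas mesenchymal cells have lost these contacts, carry vimentin filaments and lay down fibronectin. The passage between both states is driven by repressors that bind E-boxes in the promoters of junction genes, among them the products of SNAI1 and ZEB1, and splicing factors such as ESRP2 keep epithelial isoforms. Pancreatic cancer lines are known to lie at different points along this range.

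With DMSO, BxPC-3 had the epithelial pattern at CDH1 and ESRP2 and little VIM, SNAI1 and ZEB1 RNA. MiaPaCa-2 had the reverse, with CDH1 near the limit of detection. PANC-1 had VIM, SNAI1 and ZEB1 far above BxPC-3, and also more ESRP2, OCLN and CDH1 than MiaPaCa-2. FN1, KRT8, KRT18 and OCLN did not follow the side on which they are usually placed. After 6 h of THZ1, VIM, SNAI1, KRT8 and KRT18 were higher in MiaPaCa-2 and BxPC-3 on the deposited scale, ESRP2 was higher in MiaPaCa-2 and lower in BxPC-3, and on the scale of added control RNAs SNAI1 in BxPC-3 was the 1 marker still called higher.

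Values below are the deposited ones multiplied by 1 constant, so that the average library sums to 1e+06; 1 unit corresponds to between 6.34 reads and 24.7 reads in the 18 libraries. Log2 differences come from limma on log2 of the value plus 1 with all 18 libraries in 1 fit. A gene is called when its p, adjusted over the 15354 genes tested, is under 0.05. The libraries held 6352482 to 20910423 reads. The shallowest, PANC-1 DMSO replicate 1, stood apart: it correlated with replicates 2 and 3 of its group at 0.951 and 0.942, and those with each other at 0.996. On the deposited scale it was the highest of the 3 PANC-1 DMSO libraries for 7 of the 9 markers and the lowest for the other 2, ZEB1 and OCLN. Its gene total on that scale was also the highest, at 1.00017e+06 against 790806 and 773011 in replicates 2 and 3. The ranks of the markers were not corrected for this total. The same ranks over all genes are not given, so they do not show a deviation specific to the markers. Several results resting on this library are therefore given with and without it, on the deposited scale. Because the spread is pooled over groups, this library also enters the p-values of MiaPaCa-2 and BxPC-3. Without it, 5421 rather than 2118 genes were called between the THZ1 responses of those 2 lines. The scale matters for every THZ1 effect. On the deposited scale the gene totals were 1.31e+06 to 1.35e+06 in the MiaPaCa-2 and BxPC-3 THZ1 libraries. In the DMSO libraries of these lines they were 8.01e+05 to 8.44e+05. The median log2 change of all genes with THZ1 on that scale was -0.07 in PANC-1, 0.19 in MiaPaCa-2 and 0.25 in BxPC-3. With libraries set to equal sums these medians were -0.07, -0.31 and -0.30. With libraries set to equal totals of the ERCC control RNAs, which the labels say were added to the extracted RNA, these medians were -0.31, -0.85 and -0.64. The ERCC totals varied between replicates, at 5398, 3890 and 4036 in MiaPaCa-2 THZ1 and 1923, 1745 and 1709 in MiaPaCa-2 DMSO. The gene totals of the same THZ1 libraries were 1.33e+06, 1.31e+06 and 1.32e+06. These gene totals come after the division of each library by its own whole number and are no independent measure. The source of the spread in the ERCC totals was not tested. Because the ERCC RNAs were added to RNA already extracted, neither scale measures the number of cells or the RNA per cell.

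VIM encodes vimentin, the intermediate filament protein of mesenchymal cells. In PANC-1 it had values of 1599, 1337 and 1478 with THZ1 and of 1609, 1308 and 1200 with DMSO. In MiaPaCa-2 the values were 2439, 2320 and 2478 with THZ1 and 1463, 1354 and 1424 with DMSO. In BxPC-3 they were 27.7, 28.6 and 26.8 with THZ1 and 11.8, 12.1 and 13.0 with DMSO. The THZ1 and DMSO libraries thus separated fully in MiaPaCa-2 and BxPC-3 and overlapped in PANC-1, and no BxPC-3 library came near the other lines. With DMSO the log2 difference was 6.68 for PANC-1 over BxPC-3 and 6.73 for MiaPaCa-2 over BxPC-3 (SE 0.0951 each; limma adjusted p = 6.75e-18 and 6.59e-18). Only 24 and 43 of all genes tested ranked at or above these differences in size. PANC-1 and MiaPaCa-2 differed by -0.05 (adjusted p = 0.653), or by -0.17 without PANC-1 DMSO replicate 1 (adjusted p = 0.02). With THZ1, VIM rose by 0.77 in MiaPaCa-2 (adjusted p = 4.1e-06) and by 1.11 in BxPC-3 (adjusted p = 5.45e-08) on the deposited scale. On the ERCC scale these changes were -0.52 and -0.02. With equal library sums they were 0.12 (limma adjusted p = 0.157) and 0.42 (adjusted p = 8.31e-05). In PANC-1 the change on the deposited scale was 0.11 (adjusted p = 0.479), and 0.23 without PANC-1 DMSO replicate 1 (adjusted p = 0.0345).

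SNAI1 encodes Snail, a zinc finger repressor of CDH1. Its values in PANC-1 were 16.9, 13.4 and 15.6 with THZ1 and 29.8, 16.2 and 16.8 with DMSO. In MiaPaCa-2 they were 27.8, 23.8 and 24.3 with THZ1 and 9.83, 7.71 and 7.90 with DMSO. In BxPC-3 they were 4.52, 4.28 and 5.17 with THZ1, from 52 to 64 reads a library, and 0.521, 0.244 and 0.518 with DMSO, from 4 to 11 reads. Every THZ1 library of MiaPaCa-2 and BxPC-3 lay above every DMSO library of its line, and with DMSO the lines stood in the order PANC-1, MiaPaCa-2, BxPC-3 without overlap. The DMSO differences were 3.89 for PANC-1 over BxPC-3, 2.73 for MiaPaCa-2 over BxPC-3 and 1.16 for PANC-1 over MiaPaCa-2 (SE 0.184 each), with limma adjusted p of 1.33e-11, 1.06e-09 and 3.73e-05. SNAI1 rose by 1.48 with THZ1 in MiaPaCa-2 (adjusted p = 4.7e-06) and by 1.99 in BxPC-3 (adjusted p = 1.36e-07). In BxPC-3 the change ranked 173 of 15354 by size. With equal ERCC totals it was still 1.21 in BxPC-3 (adjusted p = 4.14e-06), where the rise was called under all 34 alternatives with log2 changes of 0.30 to 3.14, the lowest with 1 added in the deposited unit and the highest in DESeq2 on the recovered reads. In MiaPaCa-2 the ERCC value was 0.27 (adjusted p = 0.15), above the median gene by 1.12. In PANC-1 the change was -0.38 (adjusted p = 0.235), and -0.11 without PANC-1 DMSO replicate 1 (adjusted p = 0.707).

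ZEB1 encodes an E-box repressor that holds cells in the mesenchymal state. In PANC-1 it had 35.8, 50.6 and 41.1 with THZ1 and 21.6, 35.5 and 44.1 with DMSO. The MiaPaCa-2 values were 34.1, 42.0 and 41.3 with THZ1 and 35.6, 39.1 and 41.1 with DMSO. In BxPC-3 it was at the edge of detection, with 1.17, 0.329 and 0.727 under THZ1 and 0.711, 1.04 and 0.979 under DMSO, from 4 to 17 reads a library. The THZ1 and DMSO libraries overlapped in all 3 lines. With DMSO, ZEB1 was higher by 4.13 in PANC-1 than in BxPC-3 and by 4.38 in MiaPaCa-2 than in BxPC-3 (limma adjusted p = 4.83e-11 and 1.76e-11), while PANC-1 and MiaPaCa-2 differed by -0.24 (adjusted p = 0.346). The THZ1 changes were 0.37, 0.01 and -0.16 in PANC-1, MiaPaCa-2 and BxPC-3, none of them called, and on the ERCC scale ZEB1 was lower with THZ1 in MiaPaCa-2 (log2 change -1.25, adjusted p = 0.000861). The antisense neighbour ZEB1_AS1 changed by -1.04 with THZ1 in MiaPaCa-2 (adjusted p = 6.18e-06); the library kit keeps strand, but how strand was used in counting is not given in the sources used here.

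SNAI1 and ZEB1 proteins bind the E-box CACCTG, which reads CAGGTG on the other strand. Both spellings were looked for in the RefSeq promoter windows (GRCh38.p14, 250 bases before to 50 after a start), which cover 5 of the 9 markers: VIM, ZEB1, FN1, OCLN and KRT8. Of the 12 windows of these 5 genes, 4 held a match, and all 4 belonged to OCLN and ZEB1. Among all 35116 windows 7231 held a match, or 20.6%. The window with most matches of each of these genes is shown, OCLN at chr5:69492540-69492839 and ZEB1 at chr10:31318966-31319265, both on the plus strand, with the E-boxes in capitals. In the OCLN window they begin at positions -133 and 35 from the start, and in the ZEB1 window at -242, -85 and 33. A match describes the letters only.
OCLN: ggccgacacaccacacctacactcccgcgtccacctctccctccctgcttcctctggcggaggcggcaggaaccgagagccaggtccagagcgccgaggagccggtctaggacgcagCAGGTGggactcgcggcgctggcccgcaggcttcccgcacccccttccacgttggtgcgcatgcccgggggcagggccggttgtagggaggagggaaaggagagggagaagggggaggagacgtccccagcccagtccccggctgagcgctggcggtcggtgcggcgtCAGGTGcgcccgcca
ZEB1: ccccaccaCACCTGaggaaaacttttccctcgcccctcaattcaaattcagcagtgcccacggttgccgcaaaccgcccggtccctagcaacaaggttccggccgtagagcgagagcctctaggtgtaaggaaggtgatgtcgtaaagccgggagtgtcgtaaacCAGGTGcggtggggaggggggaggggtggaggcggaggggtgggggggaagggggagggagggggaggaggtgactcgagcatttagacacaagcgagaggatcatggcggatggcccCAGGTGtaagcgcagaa

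FN1 encodes fibronectin, a matrix protein counted as mesenchymal. In these lines it ran the other way. Its values in PANC-1 were 2.59, 2.18 and 2.49 with THZ1 and 12.8, 3.17 and 3.64 with DMSO, where the 12.8 is replicate 1. In MiaPaCa-2 they were 1.83, 1.79 and 2.42 with THZ1 and 2.91, 3.99 and 3.54 with DMSO. In BxPC-3 they were 43.8, 37.2 and 36.7 with THZ1 and 27.5, 24.6 and 27.0 with DMSO. All BxPC-3 libraries exceeded all libraries of the other lines. With DMSO the log2 difference was -2.09 for PANC-1 against BxPC-3 (SE 0.300, limma adjusted p = 1.3e-05), or -2.64 without PANC-1 DMSO replicate 1, and -2.62 for MiaPaCa-2 against BxPC-3 (adjusted p = 8.62e-07). THZ1 and DMSO libraries did not overlap in any line, THZ1 lying lower in PANC-1 and MiaPaCa-2 and higher in BxPC-3, yet none of the changes was called. These were -0.91, -0.57 and 0.55, with adjusted p of 0.127, 0.117 and 0.125. Without PANC-1 DMSO replicate 1 the changes were called in MiaPaCa-2 (adjusted p = 0.000177) and BxPC-3 (adjusted p = 0.000245), and the PANC-1 change shrank to -0.37 (adjusted p = 0.0986). With equal ERCC totals the BxPC-3 change turned to -0.60. In the same library, PANC-1 DMSO replicate 1, the 3 fibroblast markers with a row (PDGFRB, COL1A2 and COL3A1) summed to 12.6 and the endothelial marker VWF reached 6.79, the highest values among PANC-1 libraries; their part in the FN1 value was not tested.

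CDH1 encodes E-cadherin, the cadherin of epithelial adherens junctions. It had 2.82, 3.36 and 2.74 in PANC-1 with THZ1 and 4.89, 3.07 and 1.96 with DMSO. In MiaPaCa-2 the values were 0.183, 0.0893 and 0.211 with THZ1 and 0.202, 0.216 and 0.118 with DMSO, which stand for only 1 to 5 reads a library. In BxPC-3 they were 625, 604 and 603 with THZ1 and 312, 296 and 285 with DMSO. No MiaPaCa-2 library reached 1, so the gene passed the filter through the other lines. With DMSO, the log2 difference of CDH1 was -6.17 for PANC-1 against BxPC-3 and -7.99 for MiaPaCa-2 against BxPC-3 (limma adjusted p = 1.45e-14 and 4.7e-16). The MiaPaCa-2 value ranged from -10.88 to -4.14 over the alternatives, being lower in size with larger added constants. PANC-1 exceeded MiaPaCa-2 by 1.81 (adjusted p = 8.51e-08). CDH1 rose with THZ1 in BxPC-3 by 1.03 (SE 0.169, adjusted p = 6.37e-05) on the deposited scale, while the ERCC value was -0.16. With equal library sums the BxPC-3 change was 0.30 and not called (limma adjusted p = 0.0817). The changes in PANC-1 and MiaPaCa-2 on the deposited scale were -0.06 and -0.02, neither called. CDH3, the P-cadherin gene next to CDH1 in the RefSeq order of genes, had DMSO differences of -4.98 for PANC-1 and -6.89 for MiaPaCa-2 against BxPC-3, and a THZ1 change of 0.97 in BxPC-3 (adjusted p = 0.000343; -0.22 with equal ERCC totals, adjusted p = 0.303).

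ESRP2 encodes an epithelial splicing regulator. Its values in PANC-1 were 17.4, 19.4 and 19.5 with THZ1 and 20.8, 20.03 and 18.03 with DMSO. In MiaPaCa-2 they were 4.85, 5.71 and 3.999 with THZ1 and 2.14, 1.99 and 2.12 with DMSO. In BxPC-3 they were 33.8, 35.9 and 36.7 with THZ1 and 54.3, 56.9 and 53.0 with DMSO. All THZ1 libraries of MiaPaCa-2 were above the DMSO ones and all of BxPC-3 were below them. The DMSO differences were -1.44 for PANC-1 against BxPC-3, -4.17 for MiaPaCa-2 against BxPC-3 and 2.74 for PANC-1 against MiaPaCa-2 (SE 0.105 each), with limma adjusted p of 3.81e-09, 3e-15 and 1.04e-12. ESRP2 had called THZ1 changes of opposite sign: 0.91 in MiaPaCa-2 (adjusted p = 1.99e-06; -0.06 with equal ERCC totals) and -0.61 in BxPC-3 (adjusted p = 0.000105), with -0.06 in PANC-1 (adjusted p = 0.731). On the ERCC scale the MiaPaCa-2 value was -0.06, above the median gene by 0.78, and the BxPC-3 value was -1.77. The fall in BxPC-3 was called under all 34 alternatives, at -1.77 to -0.45.

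OCLN encodes occludin of tight junctions, and it was lowest in the line with most CDH1. PANC-1 had 18.3, 25.5 and 19.8 with THZ1 and 13.1, 24.2 and 26.2 with DMSO. MiaPaCa-2 had 7.51, 5.54 and 6.74 with THZ1 and 6.23, 7.01 and 6.89 with DMSO. BxPC-3 had 3.82, 2.06 and 2.99 with THZ1 and 3.41, 3.29 and 3.28 with DMSO. The DMSO libraries of the 3 lines did not overlap, and the THZ1 and DMSO libraries overlapped in each line. The DMSO differences were 2.30 for PANC-1 over BxPC-3, 0.83 for MiaPaCa-2 over BxPC-3 and 1.47 for PANC-1 over MiaPaCa-2, with limma adjusted p of 8.32e-08, 0.00288 and 1.66e-05. The THZ1 changes of OCLN were 0.05, -0.03 and -0.16 in PANC-1, MiaPaCa-2 and BxPC-3, none called. On the ERCC scale its changes were -1.16 in MiaPaCa-2 and -0.99 in BxPC-3, beside medians of all genes of -0.85 and -0.64. MARVELD2, which encodes tricellulin and lies next to OCLN, fell with THZ1 by 0.96 in MiaPaCa-2 (adjusted p = 8.12e-06) and by 1.81 in BxPC-3 (adjusted p = 5.77e-09).

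KRT8 and KRT18 encode the paired keratins of simple epithelia and are neighbours on chromosome 12. KRT8 had 2025, 1651 and 1826 in PANC-1 with THZ1 and 2762, 1562 and 1412 with DMSO. In MiaPaCa-2 it had 3311, 3043 and 3042 with THZ1 and 1473, 1401 and 1398 with DMSO, and in BxPC-3 1889, 1987 and 1992 with THZ1 and 659, 713 and 737 with DMSO. The THZ1 libraries stood well above the DMSO libraries in MiaPaCa-2 and BxPC-3. KRT18 had 253, 206 and 222 in PANC-1 with THZ1 and 269, 193 and 173 with DMSO. In MiaPaCa-2 it had 528, 476 and 508 with THZ1 and 277, 251.3 and 252.5 with DMSO, and in BxPC-3 408, 419 and 419 with THZ1 and 164, 173 and 170 with DMSO. Both keratins were thus present in every line, and lowest with DMSO in BxPC-3. The DMSO differences from BxPC-3 were 1.38 for KRT8 and 0.30 for KRT18 in PANC-1, and 1.02 for KRT8 and 0.62 for KRT18 in MiaPaCa-2, all called. That of KRT18 in PANC-1 (limma adjusted p = 0.0422) was not called in 19 of 34 alternatives, among them the fit without PANC-1 DMSO replicate 1, where it was 0.12. With THZ1, on the deposited scale but not on that of the ERCC totals, KRT8 rose by 1.14 in MiaPaCa-2 and by 1.48 in BxPC-3 (adjusted p = 3.02e-05 and 1.52e-06), and KRT18 by 0.95 and 1.29 (adjusted p = 5.95e-06 and 1.55e-07). The ERCC scale gave KRT8 changes of -0.16 and 0.28 and KRT18 changes of -0.34 and 0.11. In PANC-1 the changes were 0.00 for KRT8 and 0.12 for KRT18, and without PANC-1 DMSO replicate 1 both were 0.30 and called (adjusted p = 0.0124 and 0.0135). RefSeq lists 52 numbered KRT8 pseudogenes and 68 of KRT18, of which 14 and 18 have rows of their own in the table, so reads of near-identical copies may be split between rows and the keratin levels are uncertain to that extent.

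**Figure D1:**
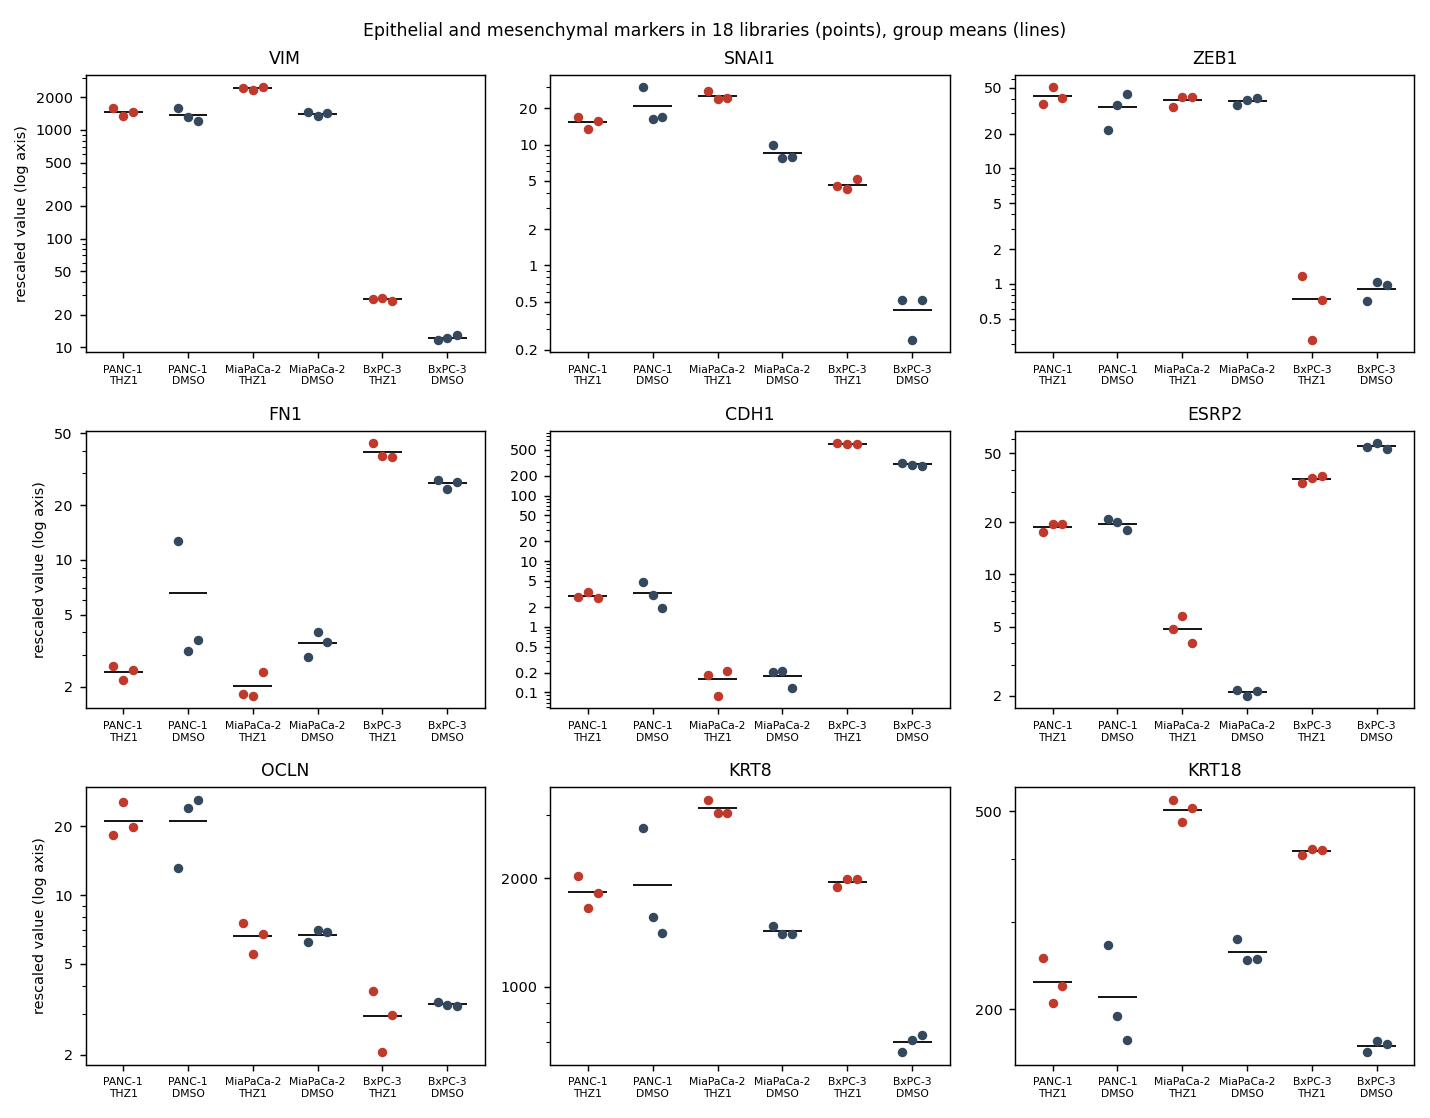
Rescaled value of each marker on a log axis in the 18 libraries, by group (red THZ1, dark DMSO), with a line at the mean of the 3 libraries. VIM, SNAI1 and ZEB1 lie lowest in BxPC-3 and CDH1 and FN1 highest there, THZ1 libraries of MiaPaCa-2 and BxPC-3 lie above DMSO for VIM, SNAI1, KRT8 and KRT18, and ESRP2 is above DMSO in MiaPaCa-2 and below it in BxPC-3.

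Levels of different genes were compared per kilobase of the principal GENCODE 29 transcript, a length that is approximate because the annotation used in counting is not given in the sources used here. With DMSO the order in PANC-1 was KRT8 at 899 ± 348 per kilobase (SD, n = 3), VIM at 735 ± 113, KRT18 at 136 ± 32.3, SNAI1 at 12.4 ± 4.57, ZEB1 at 6.22 ± 2.09, ESRP2 at 5.18 ± 0.382, OCLN at 3.29 ± 1.10, FN1 at 0.827 ± 0.686 and CDH1 at 0.677 ± 0.303. There KRT8 and VIM, ZEB1 and ESRP2, and FN1 and CDH1 lay within the SD of their neighbour. In MiaPaCa-2 VIM led with 757 ± 29.5, followed by KRT8 at 670 ± 19.9 and KRT18 at 167 ± 9.29, and all others stood at 7.12 or below, down to CDH1 at 0.0365 ± 0.0108. In BxPC-3 KRT8 at 331 ± 18.7, KRT18 at 108 ± 2.80 and CDH1 at 60.9 ± 2.78 led, followed by ESRP2 at 14.4 ± 0.532 and VIM at 6.58 ± 0.319, and SNAI1 at 0.254 ± 0.0945 and ZEB1 at 0.168 ± 0.0320 came last.

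Between the DMSO groups, 6 of the 9 markers were called higher and 3 lower in PANC-1 than in BxPC-3, against 33.7% of all genes called higher and 25.4% lower (59.1% in either direction). In MiaPaCa-2 against BxPC-3 the counts were the same, 6 higher and 3 lower, against 37.5% and 25.1% of all genes (62.6% in either direction). In both contrasts the markers called higher were VIM, SNAI1, ZEB1, OCLN, KRT8 and KRT18, and those called lower were FN1, CDH1 and ESRP2. Since both contrasts use the BxPC-3 DMSO libraries, they are not independent. The libraries of both lines did not overlap for all 9 markers in either contrast, which held for 57.6% of all genes in PANC-1 against BxPC-3 and for 79.7% in MiaPaCa-2 against BxPC-3. The median of the 9 log2 differences was 1.38 and 0.83 in these contrasts, beside medians of 0.12 and 0.15 over all genes. Between PANC-1 and MiaPaCa-2, 4 markers were called higher in PANC-1 (SNAI1, CDH1, ESRP2 and OCLN) and 1 lower (KRT18, -0.32, adjusted p = 0.0311), against 28% and 32.8% of all genes (60.8% in either direction), and 4 of 9 did not overlap, against 59.5% of all genes. The KRT18 difference was not called in 5 of 34 alternatives and was -0.50 without PANC-1 DMSO replicate 1. VIM (-0.05), ZEB1 (-0.24), FN1 (0.53) and KRT8 (0.36) were not called between these lines. Without PANC-1 DMSO replicate 1 they were -0.17, 0.037, -0.019 and 0.062, and VIM was called. KRT8 was called in 8 of 34 alternatives.

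**Figure D2:**
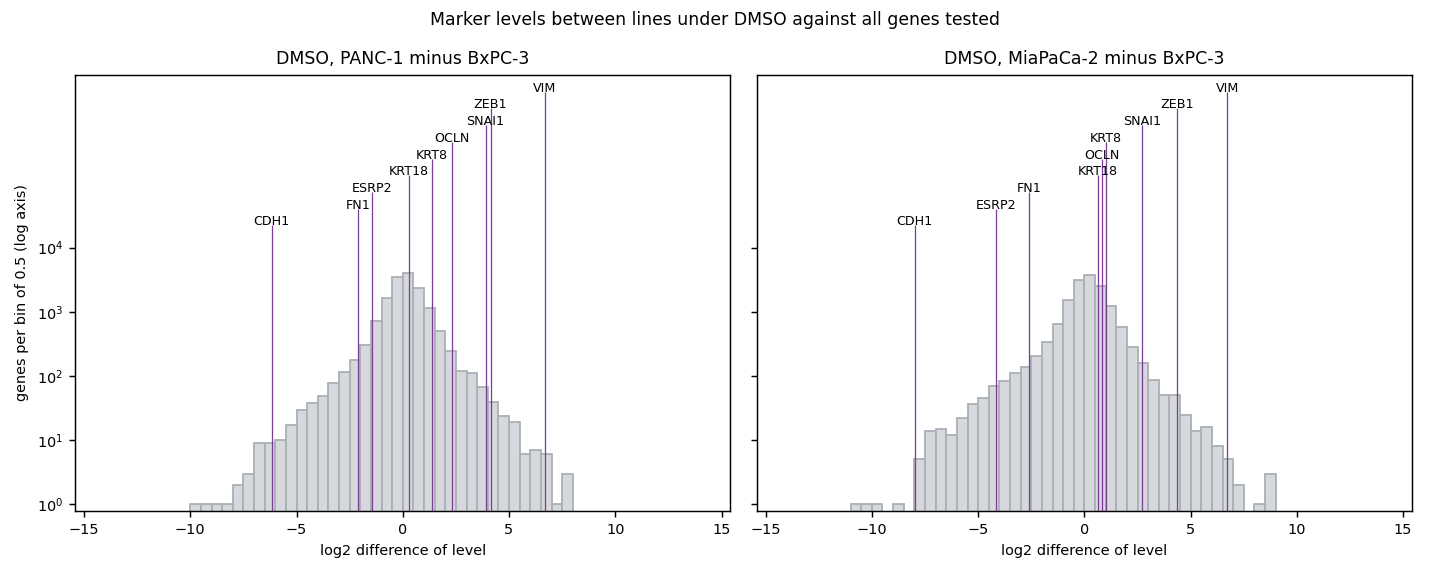
Histograms of the log2 difference of DMSO levels over the 15354 genes tested, in bins of 0.5 with a log count axis, for PANC-1 minus BxPC-3 and MiaPaCa-2 minus BxPC-3, with a labelled line at each marker (line heights carry no value). VIM at 6.68 and 6.73 and CDH1 at -6.17 and -7.99 lie in the tails, and KRT18 at 0.30 and 0.62 near the centre.

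With THZ1, no marker was called in PANC-1 by limma, where 0.501% of all genes were called (0.274% higher and 0.228% lower). In that contrast 1 marker, FN1, had an unadjusted p under 0.05; edgeR and voom on the recovered reads called no marker, DESeq2 called FN1 lower, and the fit without PANC-1 DMSO replicate 1 called 3 higher, VIM, KRT8 and KRT18, against 5.63% of all genes higher and 1.35% lower. In MiaPaCa-2 limma called 5 markers higher (VIM, SNAI1, ESRP2, KRT8 and KRT18) and 0 lower, against 36.5% and 19.8% of all genes (56.3% in either direction). For markers lower in MiaPaCa-2, 0 had an unadjusted p under 0.05, and voom, edgeR and DESeq2 each called 1, FN1. In BxPC-3 it called 5 higher (VIM, SNAI1, CDH1, KRT8 and KRT18) and 1 lower (ESRP2), against 40% and 18.9% of all genes (59% in either direction). The THZ1 and DMSO libraries did not overlap for 1 of 9 markers in PANC-1, 6 in MiaPaCa-2 and 7 in BxPC-3, against 17.1%, 73.8% and 76.1% of all genes. The median change of the 9 markers was 0.00, 0.77 and 1.03 in PANC-1, MiaPaCa-2 and BxPC-3. These calls follow the scale. With equal ERCC totals, limma called 2 lower in PANC-1 (SNAI1 and FN1), against 0.0323% of all genes higher and 18.4% lower. Both genes had their highest PANC-1 value in DMSO replicate 1, and no ERCC-scaled fit left that library out. On the deposited scale without it, their changes were -0.11 and -0.37, neither called. In MiaPaCa-2 it called 5 lower (VIM, ZEB1, FN1, OCLN and KRT18), against 1.36% higher and 73.9% lower. In BxPC-3 it called 1 higher (SNAI1) and 2 lower (ESRP2 and OCLN), against 1.28% higher and 59.1% lower. Set against the median gene of the same scale, VIM, SNAI1, KRT8 and KRT18 stayed above it in MiaPaCa-2 and BxPC-3: by 0.58, 1.29, 0.95 and 0.76 in MiaPaCa-2 on the deposited scale and by 0.32, 1.12, 0.69 and 0.50 on the ERCC scale. In BxPC-3 the same genes lay above it by 0.86, 1.74, 1.23 and 1.04 on the deposited scale and by 0.62, 1.85, 0.92 and 0.75 on the ERCC scale. Also above it on both scales were ESRP2 in MiaPaCa-2 (0.73 and 0.78) and, in BxPC-3, CDH1 (0.78 and 0.48) and FN1 (0.30 and 0.04). By size of the deposited-scale change, SNAI1 ranked 456 and VIM 4157 of 15354 genes in MiaPaCa-2. In BxPC-3 they ranked 173 and 1886, with KRT8 and KRT18 between them in both lines.

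**Figure D3:**
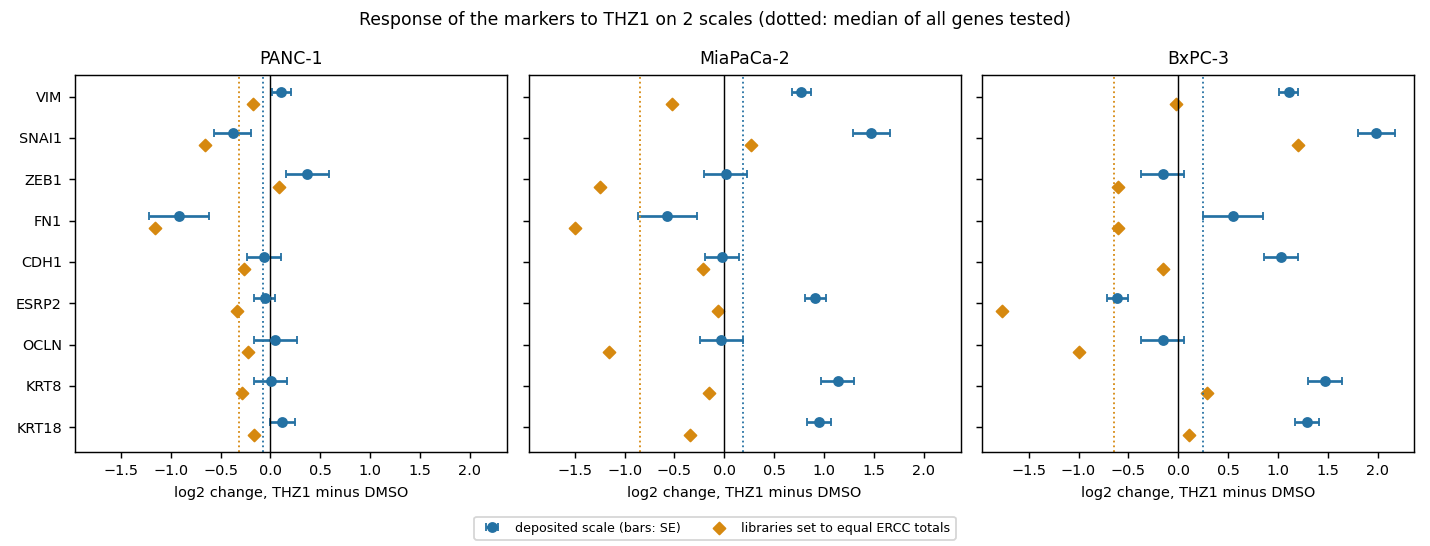
Log2 change with THZ1 of each marker in PANC-1, MiaPaCa-2 and BxPC-3, as limma estimates with SE on the deposited scale (circles) and with libraries set to equal ERCC totals (diamonds). Dotted lines give the median of all genes on each scale, at -0.07 and -0.31 in PANC-1, 0.19 and -0.85 in MiaPaCa-2 and 0.25 and -0.64 in BxPC-3.

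Whether the response differed between lines was tested as the difference of the THZ1 changes. Between PANC-1 and BxPC-3, 7 of 9 markers differed (6 with a lower change in PANC-1 and ESRP2 with a higher one), against 30.8% and 11.9% of all genes (42.7% in either direction). Between PANC-1 and MiaPaCa-2, 5 differed, all with a lower change in PANC-1, against 27.4% of all genes, and 0 with a higher one, against 11.6% (38.9% in either direction). In that direction 0 markers had an unadjusted p under 0.05, no other tool called one, and ZEB1 was called on the ERCC scale and on that of equal sums. Between MiaPaCa-2 and BxPC-3, 2 differed: ESRP2 by 1.53 (SE 0.149, adjusted p = 7.78e-06) and CDH1 by -1.06 (SE 0.239, adjusted p = 0.0071), against 6.14% of all genes with a higher and 7.66% with a lower change in MiaPaCa-2 (13.8% in either direction). The ESRP2 difference was called under all 34 alternatives, at 0.63 to 1.95, and on the ERCC scale it was 1.70 (adjusted p = 0.000168). The CDH1 difference rests on MiaPaCa-2 levels of 1 to 5 reads and was not called by voom, edgeR or DESeq2. SNAI1 differed by -2.37 between PANC-1 and BxPC-3 and by -1.86 between PANC-1 and MiaPaCa-2, and both differences were called under all 34 alternatives. Between MiaPaCa-2 and BxPC-3 the SNAI1 difference was -0.51 (adjusted p = 0.23). It was called lower in MiaPaCa-2 on the recovered reads by edgeR at -1.72 (adjusted p = 0.00196), DESeq2 at -1.77 and voom at -1.74, with equal ERCC totals at -0.94 (adjusted p = 0.0191), with equal sums at -0.69, with an added constant of 0.25 at -1.33, and, at -0.51, by limma on the compared groups alone and without PANC-1 DMSO replicate 1. It was 0.34 with an added constant of 5 (adjusted p = 0.301) and was called higher, at 0.41, on the values before rescaling (adjusted p = 0.0319). Without PANC-1 DMSO replicate 1, 7 markers differed between MiaPaCa-2 and BxPC-3, 1 with a higher and 6 with a lower change in MiaPaCa-2, against 14.9% and 20.9% of all genes. Each pair of these contrasts shares the libraries of 1 line.

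Ratios of markers within a library do not depend on how libraries are scaled, apart from the added 1. In BxPC-3 the means of SNAI1 with DMSO (0.428) and of ZEB1 (0.741 with THZ1, 0.909 with DMSO) lay under that constant. The BxPC-3 ratios with these genes therefore depend on the constant and on the scale. With 3 against 3 libraries the smallest two-sided p of an exact permutation test is 0.1, so none of these 9 comparisons could pass 0.05. The log2 ratio of SNAI1 to ZEB1 was -1.41 ± 0.406 with THZ1 and -0.66 ± 0.966 with DMSO in PANC-1, -0.61 ± 0.277 and -2.07 ± 0.269 in MiaPaCa-2, and 1.72 ± 0.335 and -0.42 ± 0.273 in BxPC-3 (SD, n = 3 each). The differences were -0.75, 1.46 and 2.15, with exact p of 0.5, 0.1 and 0.1 (0.5, 0.18 and 0.18 after Benjamini-Hochberg adjustment over 9). THZ1 and DMSO libraries of MiaPaCa-2 and of BxPC-3 did not overlap. The KRT8 to KRT18 ratio was 3.01 ± 0.0211 with THZ1 and 3.13 ± 0.197 with DMSO in PANC-1, 2.63 ± 0.0493 and 2.45 ± 0.0366 in MiaPaCa-2, and 2.23 ± 0.0211 and 2.05 ± 0.0561 in BxPC-3. It was thus ordered PANC-1, MiaPaCa-2, BxPC-3 under both treatments without overlap, and the THZ1 differences were -0.12, 0.19 and 0.18 (exact p = 0.5, 0.1 and 0.1). The ZEB1 to ESRP2 ratio was 1.12 ± 0.187 with THZ1 and 0.70 ± 0.603 with DMSO in PANC-1, 2.78 ± 0.264 and 3.68 ± 0.119 in MiaPaCa-2, and -4.42 ± 0.396 and -4.87 ± 0.127 in BxPC-3. Its differences were 0.43, -0.90 and 0.46 (exact p = 0.4, 0.1 and 0.2). PANC-1 lay between the other lines in this ratio under both treatments.

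**Figure D4:**
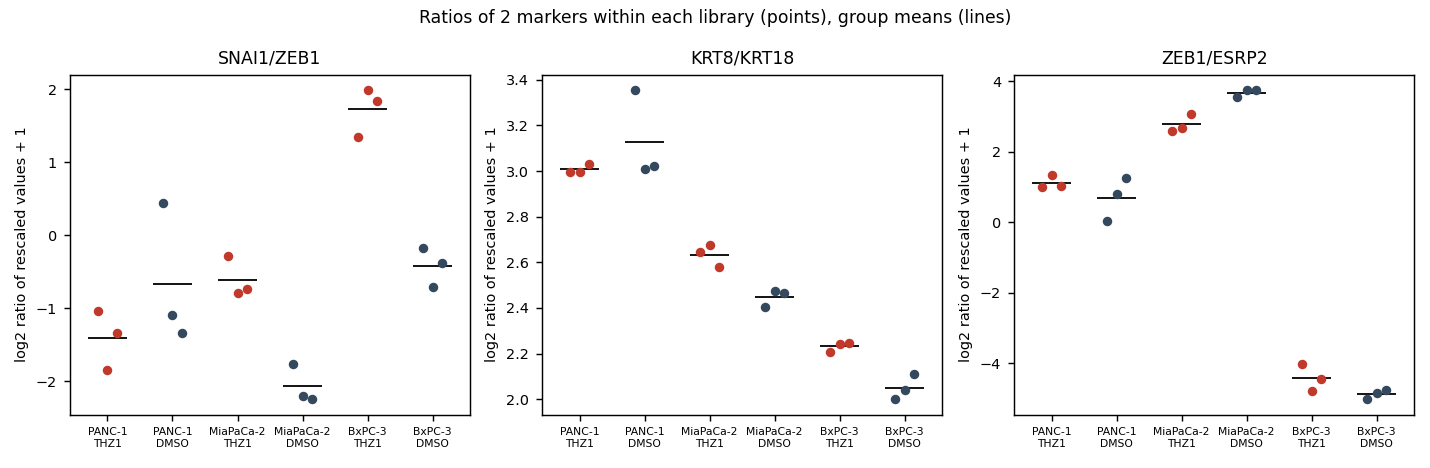
Log2 ratio of 2 markers (each value plus 1) in each library by group (red THZ1, dark DMSO), with a line at the mean. The THZ1 libraries lie above the DMSO libraries for SNAI1/ZEB1 and KRT8/KRT18 in MiaPaCa-2 and BxPC-3 and below them for ZEB1/ESRP2 in MiaPaCa-2; the highest PANC-1 DMSO point of SNAI1/ZEB1 and KRT8/KRT18 and the lowest of ZEB1/ESRP2 are replicate 1.

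Across the 18 libraries, which fall into 6 groups and so share line and treatment, the log2 values of VIM followed those of ZEB1 (Pearson r = 0.98) and SNAI1 (0.91) and ran against CDH1 (-0.97) and FN1 (-0.93). FN1 followed CDH1 (0.96). CDH1 followed ESRP2 (0.84) and ran against OCLN (-0.63). KRT8 followed KRT18 (0.81) and SNAI1 (0.86), and KRT18 was nearly unrelated to VIM (0.21), ZEB1 (0.04) and CDH1 (-0.11). These values describe the 18 libraries and carry no test. Among 7195 tested genes with a mean of at least 20, the pair most like VIM were FAM101B (0.997) and JAM3 (0.995), and the pair most like CDH1 were LCN2 and WWC1 (0.998 each). Those most like ZEB1 were ROR1 (0.995) and SNHG14 (0.993), and those most like SNAI1 FLOT1 (0.988) and CCDC106 (0.988). For FN1 they were SPTB (0.987) and ATP2C2 (0.980), and for ESRP2 H1F0 (0.984) and KLF13 (0.983). For OCLN they were NUP98 (0.985) and UACA (0.979), for KRT8 PVT1 and STRA13 (0.989 each), and for KRT18 RPS27A (0.991) and RAB5C (0.990).

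The wider lists of epithelial and mesenchymal genes held 127 symbols, of which 86 had a row and 85 were tested. No value in the table stood for less than 1 read. List genes without a read in some library may therefore be among those with no row. The counts below, and the shares of all genes, cover only genes with a row. With DMSO, 45 of the 85 were called lower and 25 higher in PANC-1 than in BxPC-3, and 52 lower and 14 higher in MiaPaCa-2 than in BxPC-3. Over all genes tested these shares were 25.4% lower and 33.7% higher in PANC-1, and 25.1% lower and 37.5% higher in MiaPaCa-2. The desmosome genes, which anchor keratin filaments at cell contacts, were lower in 9 of 11 and higher in 0 in PANC-1, and lower in 9 and higher in 1 in MiaPaCa-2, with medians of -3.01 and -3.42. DSC3 and DSG3, desmosomal cadherins, had differences of -5.85 and -5.07 in PANC-1 and -6.25 and -5.28 in MiaPaCa-2. Of 17 tight junction genes, 2 were higher and 10 lower in PANC-1, and 1 higher and 12 lower in MiaPaCa-2. LSR, a protein of tricellular contacts, differed by -1.99 and -5.09. Of 10 adherens junction genes, 2 were higher and 7 lower in PANC-1 and 0 higher and 6 lower in MiaPaCa-2; PVRL1, a nectin, differed by -4.97 and -5.55. Of 6 epithelial transcription and splicing factors, 1 was higher and 5 lower in PANC-1 and 0 higher and 4 lower in MiaPaCa-2, among them KLF5 at -6.31 and -6.37 and FOXA1 at -4.63 and -4.47. Of 4 epithelial surface genes, 1 was higher and 2 lower in PANC-1 and 0 higher and 3 lower in MiaPaCa-2; the membrane protease gene ST14 differed by -5.21 and -6.38 and MUC1 by 1.38 and 0.44, the last not called.

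Of the 22 tested genes of the mesenchymal matrix and cytoskeleton list, 13 were higher and 6 lower in PANC-1 than in BxPC-3, and 7 higher and 10 lower in MiaPaCa-2 than in BxPC-3, beside 33.7% of all genes higher and 25.4% lower in PANC-1 and 37.5% and 25.1% in MiaPaCa-2; the difference between these counts was not tested. S100A4, a calcium-binding protein of motile cells, was higher by 4.76 in PANC-1 and by 5.80 in MiaPaCa-2. The matrix protease MMP2 was higher by 6.45 in PANC-1 and differed by -0.20 in MiaPaCa-2 (adjusted p = 0.269), and its membrane-bound activator MMP14 differed by -3.18 and -7.00. CALD1, an actin-binding caldesmon, differed by -3.86 and -0.64. Of 12 other intermediate filament genes, 4 were higher and 5 lower in PANC-1 and 4 higher and 7 lower in MiaPaCa-2; KRT7, a ductal keratin, differed by -8.68 and -10.01, and NES, which encodes nestin, differed by 3.18 and -2.28. Among transcription factors of the mesenchymal transition, FOXC2 was higher by 3.51 in PANC-1 and differed by -1.19 in MiaPaCa-2 (called lower), and TCF3 was higher in both, by 0.33 and 1.33. Between PANC-1 and MiaPaCa-2, 45 of the 85 genes were higher in PANC-1 and 20 lower, beside 28% and 32.8% of all genes.

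Other list genes with high or low values stood as follows, with DMSO differences from BxPC-3 given for PANC-1 and then MiaPaCa-2. Among junction genes, PARD6B, a polarity protein, had 1.16 and -1.15, INADL, a tight junction scaffold, -1.77 and -1.62, CLDN4, a claudin, 0.50 and -0.31, PVRL3, a nectin, -2.29 and 0.20, and MLLT4, which encodes afadin, 1.07 and 0.13. VEZT, the gene of vezatin, had 0.51 and -0.10. Among desmosome genes, the plakin PPL had -3.68 and -7.33, PERP 0.08 and -2.02 and the envelope plakin EVPL -0.24 and -0.05. ELF3, an epithelial ETS factor, had -2.18 and -3.67, and PRSS8, the gene of prostasin, -3.90 and -4.09. KRT80 had 1.54 and 2.76, LMNB1, the gene of lamin B1, -0.96 and 0.91, and SYNM, the gene of synemin, 1.18 and -0.26. COL6A1, a collagen VI chain, had 1.73 and 4.403, FBN1, the gene of fibrillin, -1.14 and -0.12, and TAGLN, an actin-binding protein, 0.78 and 0.98. Of these values those of CLDN4, SYNM, FBN1, MLLT4, VEZT and PVRL3 in MiaPaCa-2, of PERP in PANC-1 and of EVPL in both were not called.

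With THZ1, limma called none of the 85 genes in PANC-1, where only 0.501% of all genes were called. Of the 85, 22 had an unadjusted p under 0.05. Voom and edgeR also called none, and DESeq2 called 3 higher and 1 lower. Without PANC-1 DMSO replicate 1 limma called 14 of the 85 higher, beside 5.63% of all genes. In MiaPaCa-2 38 were higher and 11 lower, beside 36.5% and 19.8% of all genes, and in BxPC-3 48 were higher and 5 lower, beside 40% and 18.9%. These counts became 1 higher and 56 lower in MiaPaCa-2 and 0 higher and 47 lower in BxPC-3 with equal ERCC totals, beside 73.9% of all genes lower in MiaPaCa-2 and 59.1% in BxPC-3 on that scale. With equal library sums they were 8 higher and 27 lower in MiaPaCa-2 and 7 higher and 25 lower in BxPC-3. Over all 15368 genes tested with equal sums, 1437 were higher and 6627 lower in MiaPaCa-2. The BxPC-3 counts over all genes were 1416 and 6607. On the deposited scale higher calls fell on both sides. In MiaPaCa-2 those of the desmosome, tight junction and epithelial surface lists did not exceed the 36.5% of all genes. The mesenchymal matrix and cytoskeleton list had 13 higher and 3 lower of 22 in MiaPaCa-2 and 14 higher and 0 lower in BxPC-3, the other intermediate filament list 7 and 2 of 12 and 8 and 1, the desmosome list 4 and 1 of 11 and 7 and 0, the adherens junction list 5 and 0 of 10 and 7 and 0, the tight junction list 5 and 2 of 17 and 8 and 1, and the epithelial surface list 1 and 0 of 4 and 2 and 0. The medians of the mesenchymal matrix and cytoskeleton list were 0.49 and 0.70, beside 0.19 and 0.25 for all genes. On the deposited scale the integrin gene ITGB1 rose by 0.80 in MiaPaCa-2 and by 1.23 in BxPC-3, and CTNNB1, the gene of β-catenin, by 0.93 and 1.12. SPINT2, a protease inhibitor of epithelia, rose on that scale by 1.12 and 1.33 and LMNA, the gene of lamin A, by 1.25 and 1.19. These 4 genes had ERCC-scaled changes of -0.50, -0.36, -0.10 and -0.04 in MiaPaCa-2 and of 0.04, -0.07, 0.13 and -0.00 in BxPC-3.

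Of the 6 epithelial transcription and splicing factors, 2 were higher and 2 lower with THZ1 in MiaPaCa-2 and 1 higher and 2 lower in BxPC-3. The shares of all genes were 36.5% higher and 19.8% lower in MiaPaCa-2, and 40% and 18.9% in BxPC-3. FOXA1, a pioneer factor of foregut epithelium, fell by 0.59 in MiaPaCa-2 (adjusted p = 0.00449) and by 1.31 in BxPC-3 (adjusted p = 2.49e-06). Its MiaPaCa-2 means were only 0.615 with THZ1 and 1.39 with DMSO, near the filter value of 1. KLF4, which opposes the mesenchymal transition, fell by 0.61 and 1.41, whereas KLF5 had changes of 0.52 (called) and 0.02 on the deposited scale and of -0.43 and -1.17 with equal ERCC totals. Of the mesenchymal factors, TCF3 was higher on the deposited scale, by 0.65 in MiaPaCa-2 and by 0.35 in BxPC-3, against -0.65 and -0.83 with equal ERCC totals.

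The THZ1 changes of the same kind of genes in PANC-1, MiaPaCa-2 and BxPC-3, on the deposited scale, were 0.42, 0.78 and 1.14 for the polarity gene PARD3, -0.29, -1.10 and -0.28 for PARD6B, 0.38, 0.93 and 1.04 for CTNNA1, the gene of α-catenin, 0.61, 0.90 and 1.04 for PERP and -0.01, 1.11 and 0.74 for the plakophilin PKP3. Those of PKP4 were 0.01, -0.22 and -0.22 and those of PPL 0.26, -0.67 and 0.14. SYNM had 0.06, -0.52 and -0.97, COL6A1 0.09, 1.19 and 1.27, FBN1 -0.74, 0.13 and 0.08 and TAGLN -0.77, 0.59 and 0.13. None of the PANC-1 values was called. In MiaPaCa-2 those of PKP4 and FBN1, and in BxPC-3 those of PARD6B, PKP4, PPL, FBN1 and TAGLN, were not called either.

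The lines were checked against markers of other cell types. The epithelial list (5 of 6 genes with a row) summed to 2580 to 3213 with THZ1 and 2316 to 4056 with DMSO in PANC-1, 3611 to 3945 and 1719 to 1826 in MiaPaCa-2, and 7808 to 8215 and 4076 to 4471 in BxPC-3. With DMSO, KRT7 stood at 4.199 and KRT19 at 828 in PANC-1, at 0.915 and 60.7 in MiaPaCa-2, and at 1976 and 1469 in BxPC-3. The 3 fibroblast genes with a row, of 6 listed, summed to 0.858 to 1.09 with THZ1 and 1.23 to 12.6 with DMSO in PANC-1, to 336 to 339 and 168 to 173 in MiaPaCa-2, and to 1.73 to 2.26 and 0.61 to 1.09 in BxPC-3. In MiaPaCa-2 they consisted of COL3A1 (120 with DMSO) and COL1A2 (50.2) with PDGFRB at 0.170. With DMSO, PDGFRB stood at 0.218 in BxPC-3 and at 1.48 in PANC-1. Whether the MiaPaCa-2 libraries held RNA of any other cell type was not tested. The leukocyte, endothelial and acinar lists, each with 1 gene in the table, stayed at or below 3.04, 6.79 and 0.727. Listed genes without a row could not be checked. The neuroendocrine list, SYP alone, reached 14.52 in PANC-1, 16.2 in MiaPaCa-2 and 1.32 in BxPC-3. SMAD4, which BxPC-3 is known to have lost, stood at 0.061 to 0.242 in all 6 BxPC-3 libraries, against 39.5 to 62.1 in MiaPaCa-2 and 12.6 to 25.4 in PANC-1.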

How the data were processed

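Polyadenylated RNA of 3 pancreatic cancer lines was measured in 18 libraries from a stranded kit, per the labels' protocols. STAR and hg19 are named in the submitters' processing notes; the sources used here do not give the counting program, annotation or divisors. The deposited library columns are a signal: the authors divided the reads of each gene by 1 whole number per library, and 100% of values came back as whole reads within 0.001. The deposited table also holds the authors' mean log2 ratio over all lines and its SD, deposited as a score; neither was used. Totals are 6352482 to 20910423 reads a library.

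All library columns were multiplied by the same constant. Genes with a value of 1 in at least 3 libraries (15354 of 17026) were fitted with limma 3.58.1 (R 4.3.3, trend, 6 group means) on log2(value + 1), with Benjamini-Hochberg adjustment at 0.05. Because the unit is not raw counts, edgeR 4.0.16, DESeq2 1.42.0 and voom on the recovered reads were alternatives, beside other scalings, filters, added constants and each library left out. Leaving out a library of a group not compared keeps the estimate and changes only its p-value. Not every alternative could therefore move an estimate. Ratios were compared by exact permutation. The script was tested on simulated data. The members and lists were chosen with earlier results of these data known. All members were named; from each wider list, those named come from the 2 highest and 2 lowest mean THZ1 changes over the lines and PANC-1 minus BxPC-3 DMSO differences, with a mean of at least 5. Among the gene names, 22 had turned into dates. One result that the naming rule would include is not reported here.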

Additional observations from a re-analysis of the deposited data

Results flagged for a closer look

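The THZ1 change differed between lines, by limma's test of the difference with adjusted p under 0.05, in 14 of 27 marker comparisons. Over all genes the share that differed was 42.7% between PANC-1 and BxPC-3, 38.9% between PANC-1 and MiaPaCa-2 and 13.8% between MiaPaCa-2 and BxPC-3. Between MiaPaCa-2 and BxPC-3 the differences were -1.06 for CDH1 and 1.53 for ESRP2. Between PANC-1 and BxPC-3 they were -1.003 for VIM, -2.37 for SNAI1, -1.47 for FN1, -1.10 for CDH1, 0.55 for ESRP2, -1.48 for KRT8 and -1.17 for KRT18. Between PANC-1 and MiaPaCa-2 they were -0.66 for VIM, -1.86 for SNAI1, -0.97 for ESRP2, -1.14 for KRT8 and -0.83 for KRT18. These contrasts share libraries in pairs. With equal ERCC totals the differences still called among these were ESRP2 (1.70 for MiaPaCa-2 against BxPC-3 and 1.44 for PANC-1 against BxPC-3) and SNAI1 (-1.86 for PANC-1 against BxPC-3 and -0.92 for PANC-1 against MiaPaCa-2). The part of the scale in the other 10 was not tested beyond these values.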

How the results depend on the processing

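Over the alternatives other than leaving out a library, 1172 marker values kept direction and call, 42 gained a call, 31 lost it and 49 changed sign; when a library was left out the counts were 1398, 18, 15 and 27. The cause was not tested. Low reads limit SNAI1 and ZEB1 in BxPC-3 and CDH1 in MiaPaCa-2, where fold sizes follow the added constant.

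With equal ERCC totals the THZ1 changes were -0.16 for CDH1, -0.60 for FN1 and -0.019 for VIM in BxPC-3, with 3 markers called. In MiaPaCa-2 they were -0.064 for ESRP2, -0.34 for KRT18, -0.16 for KRT8, -0.52 for VIM and -1.25 for ZEB1. In PANC-1 they were -0.16 for KRT18, -0.28 for KRT8, -0.23 for OCLN and -0.18 for VIM, with 2855 genes and 2 markers called. The differences of response were -0.16 for OCLN and -0.64 for ZEB1 between MiaPaCa-2 and BxPC-3, with 1204 genes called, and 0.34 for FN1, 0.18 for KRT18 and 0.35 for VIM between PANC-1 and MiaPaCa-2. Both contrasts with PANC-1 then called 2 markers.

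With libraries set to equal sums, FN1 changed by -0.16 in BxPC-3 and ZEB1 by -0.62 in MiaPaCa-2, and 173 genes were called in PANC-1. VIM in MiaPaCa-2 (0.12) and CDH1 in BxPC-3 (0.30) lost their calls on that scale. The differences of response were -0.15 for ZEB1 (MiaPaCa-2 against BxPC-3) and 0.063 for CDH1 and 0.096 for FN1 (PANC-1 against MiaPaCa-2). With equal medians, OCLN changed by 0.029 in MiaPaCa-2 and 211 genes were called in PANC-1.

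ZEB1 in MiaPaCa-2 changed by -0.18 with DESeq2 and with its size factors, by -0.22 with TMM factors and by -0.20 with edgeR and with voom. In PANC-1, CDH1 changed by 0.063 with DESeq2, 0.056 with its size factors, 0.022 with TMM factors, 0.046 with edgeR and 0.093 with voom. ESRP2 in PANC-1 changed by 0.011 with DESeq2, 0.074 with its size factors, 0.033 with TMM factors, 0.021 with edgeR and 0.012 with voom. The CDH1 difference of response between PANC-1 and MiaPaCa-2 was 0.47 with DESeq2, 0.10 with its size factors, 0.076 with TMM factors, 0.45 with edgeR, 0.32 with voom and 0.0036 with 0.25 added; that of FN1 was 0.15 with voom. The DMSO difference of VIM between PANC-1 and MiaPaCa-2 was 7.09e-06 with voom.

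In PANC-1, where 77 genes were called, 691 were called by DESeq2 (1 marker), 21 with its size factors, 22 with TMM factors, 19 by edgeR and 30 by voom. The count was 343 in the deposited unit, 144 with a filter of 5, 26 with no filter, 21 with no trend, 51 with 0.25 added, 145 with 5 added and 0 with the compared groups only. Fitting the compared groups only called 6114 genes and 7 markers between the responses of MiaPaCa-2 and BxPC-3. The SNAI1 difference there was 0.41 in the deposited unit and 0.34 with 5 added; in the deposited unit that of VIM was 0.17, with 4 markers called. Fits of the compared groups only gave no value for CDH1 in MiaPaCa-2 and ZEB1 in BxPC-3.

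With the replicate number as a block, 7 genes were called in PANC-1. Same-numbered THZ1 and DMSO libraries correlated at -0.023 to 0.41 in their deviations. Of 9 pairs, 3 were over 0.1 and 5 correlated best with their own number. With 3 libraries a group, these values cannot show whether same-numbered libraries were paired. The main fit used no pairing.

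Leaving out each library gave these ranges. DMSO differences of PANC-1 against MiaPaCa-2 were -0.019 to 0.84 for FN1, -0.17 to 0.038 for VIM and -0.46 to 0.037 for ZEB1. THZ1 changes in BxPC-3 were -0.31 to 0.018 for OCLN and -0.33 to 0.024 for ZEB1. In MiaPaCa-2 they were -0.060 to 0.023 for CDH1, -0.12 to 0.075 for OCLN and -0.041 to 0.11 for ZEB1. In PANC-1 they were -0.30 to 0.19 for CDH1, -0.012 to 0.30 for KRT18, -0.18 to 0.30 for KRT8 and -0.25 to 0.22 for OCLN, with 5 to 3340 genes and 0 to 3 markers called; without PANC-1 DMSO replicate 1, 1059 genes were called. Differences of response between MiaPaCa-2 and BxPC-3 were -0.047 to 0.28 for OCLN and -0.0098 to 0.34 for ZEB1, with 1553 to 5421 genes and 2 to 7 markers called. Between PANC-1 and BxPC-3 OCLN ran from -0.095 to 0.38. Between PANC-1 and MiaPaCa-2 they were -0.28 to 0.21 for CDH1, -0.66 to 0.21 for FN1 and -0.22 to 0.25 for OCLN.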
